A study of Arabidopsis thaliana with 9 samples.

Results

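KIN1 (AT5G15960) and LTI30 (AT3G50970) are stress genes of Arabidopsis thaliana, and they make up 2 of the 16550 genes that could be named on the arrays. Each was measured by 1 probe set that the platform annotation assigns to that gene alone. Both were picked with their values on these same 9 arrays known: KIN1 stood out as higher in both flight tubes, and LTI30 as lower in 1 of them, First-Actuated. Their levels and differences are therefore given as a description, with no test. The contrasts of both flight tubes with the ground tube share the ground arrays, and the contrast between the flight tubes reuses the flight arrays, so no pair of tubes gives an independent measurement.

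KIN1 encodes a short, very hydrophilic protein whose transcript is known to accumulate in cold, in drought and after abscisic acid. LTI30, also called XERO2, encodes a dehydrin, one of a family of flexible hydrophilic proteins that bind membranes when cells lose water or cool. As background, abscisic acid is sensed by receptors that inhibit a group of protein phosphatases, which frees kinases to activate transcription factors of the bZIP class. Cold acts in parallel through the CBF transcription factors. The 2 routes meet on many of the same target promoters, those of KIN1 and of dehydrin genes among them.

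All 9 samples were whole roots, cut after fixation in RNAlater from 10-day-old seedlings of the Wassilewskija (WS) cultivar raised in 24 h light at about 19 °C. Every seedling, the ground controls included, carried pCaMV35S:14-3-3κ:GFP, a fusion of the 14-3-3 kappa protein to GFP under a strong constitutive viral promoter, and no roots without the transgene were compared. First-Actuated roots were fixed in the air as soon as about 10 s of microgravity had ended, after a climb at 4 g of about 30 s. Last-Actuated roots were fixed about 1.5 min into the level flight that followed. Ground Control roots were fixed on the ground during the same flight. The flight tubes travelled in flight-suit pockets and the ground tube was held by a person. Each group had 3 replicates, and all 3 came from 1 tube. The effects of a tube and of its condition cannot be told apart, and any spread or p-value covers replicates within a tube. The number of arrays limits the precision.

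All levels are the authors' RMA log2 expression values, so a difference of 1 is a doubling. The ground arrays stood further apart than the flight arrays. On the first principal component of the 16550 genes, with 36.4% of the variance, they scored from -38.6 to -5.05, against 19.8 to 21.8 for First-Actuated and 0.68 to 3.54 for Last-Actuated arrays. The ground array nearest to the flight arrays was replicate 2. Only 4 of 18 listed root markers and 7 of 17 listed shoot markers had a named probe set, and none was listed at 0. PYK10, a beta-glucosidase gene typical of roots, lay between 11.1 and 11.7 on all arrays. Of the 4 root markers limma called 1: EXPA18, a root hair expansin gene, rose by 0.96 from ground to First-Actuated roots (adjusted p = 0.0203) and fell by 0.90 from First-Actuated to Last-Actuated roots (adjusted p = 0.0454). EXPA7, another root hair expansin gene, had a First-Actuated minus ground difference of -0.63 (adjusted p = 0.0685). EXPA18 had its highest group mean in the same tube as KIN1, and the part of root hair cells in the values below was not tested. The summed log2 level of the root markers, in which the differences of EXPA18 and EXPA7 from the ground had opposite signs in First-Actuated roots, was 21.2 to 23.5 in ground, 22.2 to 23.0 in First-Actuated and 21.8 to 22.4 in Last-Actuated arrays. For the shoot markers it was 20.7 to 23.1, 19.3 to 20.7 and 20.6 to 21.3, and the part of shoot tissue in the values below was not tested. In whole roots, fewer cells of a type and less RNA per cell cannot be told apart.

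KIN1 was lowest on the ground, intermediate in Last-Actuated roots and highest in First-Actuated roots. Its log2 level was 3.33, 4.11 and 3.77 in ground replicates 1, 2 and 3. It was 5.11, 5.05 and 5.28 in the First-Actuated replicates and 4.71, 4.44 and 4.32 in the Last-Actuated replicates. No array of one tube overlapped an array of another, and the ground replicates were spread most widely, over 0.79 log2 units against 0.23 and 0.39. The share of all genes with the same order of 3 non-overlapping tubes was 0.997%, which is given as background only because this pattern led to the choice of the gene.

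The mean level of KIN1 was 3.74 ± 0.39 (SD, n = 3) on the ground, 5.15 ± 0.12 in First-Actuated and 4.49 ± 0.20 in Last-Actuated roots. First-Actuated roots thus stood 1.41 above the ground, a 2.65-fold difference, which ranked 97 among all genes by size in that direction. The nearest arrays of these tubes were 0.94 apart, and 9.41% of all genes had First-Actuated arrays wholly above the ground arrays. Last-Actuated roots stood 0.75 above the ground, or 1.68-fold, with a gap of 0.21 between the nearest arrays; 7.26% of genes were wholly higher in this pair of tubes. From First-Actuated to Last-Actuated roots the mean differed by -0.66, and the gap of 0.34 was wider than the one between Last-Actuated and ground roots. In that pair 9.09% of genes were wholly lower. On the log2 scale the Last-Actuated minus ground difference was 53.4% of the First-Actuated minus ground difference. The flight tubes are separate samples that share the ground arrays here, so this is not a change followed over time.

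LTI30 was lowest in First-Actuated roots, while its levels in the other tubes overlapped. Its log2 level was 2.27, 2.72 and 2.39 in the First-Actuated replicates 1, 2 and 3. It was 2.98, 3.03 and 2.91 in the Last-Actuated replicates and 2.90, 3.43 and 3.25 in the ground replicates. The 3 First-Actuated arrays lay below the other 6, and ground replicate 1 lay below all 3 Last-Actuated arrays, so the ground and Last-Actuated tubes were not separated. The median over all probe sets of an array was 2.09 to 2.15. The levels of LTI30 were thus low, and without detection calls their distance from background is unknown.

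The mean level of LTI30 was 3.19 ± 0.27 (SD, n = 3) on the ground, 2.46 ± 0.23 in First-Actuated and 2.97 ± 0.065 in Last-Actuated roots. First-Actuated roots differed from the ground by -0.73, a 1.66-fold lower level, with the nearest arrays 0.18 apart. This is a smaller separation than that of KIN1 in the same tubes, and 9.0% of all genes were wholly lower in First-Actuated than in ground arrays. Last-Actuated roots stood 0.51 above First-Actuated roots, or 1.43-fold, again with a gap of 0.18, and 9.01% of genes were wholly higher in this pair. The difference between Last-Actuated and ground roots was -0.22, less than the SD of 0.27 among the ground replicates.

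**Figure D1:**
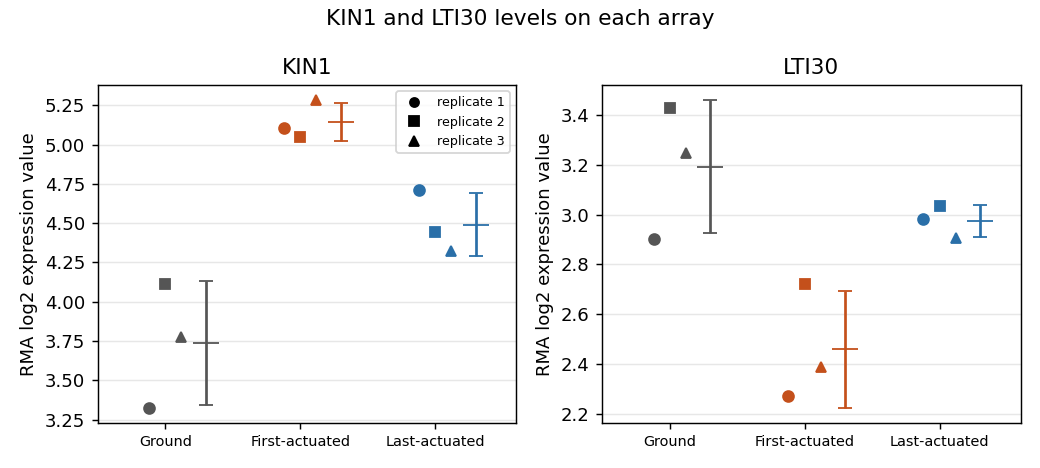
RMA log2 expression value (vertical axis) of KIN1 (left) and LTI30 (right) on each of 9 arrays, grouped by tube; marker shape gives the replicate, and the bar beside each group is its mean ± SD (n = 3). KIN1 runs from 3.33 to 4.11 on the ground and from 5.05 to 5.28 in First-Actuated roots, while the 3 First-Actuated values of LTI30, 2.27 to 2.72, lie below the other 6. The 2 panels have different scales, and neither starts at 0.

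Across tubes the 2 genes went in opposite directions, but within the ground tube they did not. Replicate 1 gave the lowest and replicate 2 the highest ground value of both. The differences therefore depended on the ground arrays in opposite ways. Set against ground replicate 2 alone, an alternative chosen after the arrays were seen, KIN1 stood 1.03 higher in First-Actuated roots and 0.38 higher in Last-Actuated roots, and LTI30 differed by -0.97 and -0.45. Leaving out 1 array at a time kept the First-Actuated minus ground difference between 1.20 and 1.59 for KIN1 and between -0.88 and -0.62 for LTI30. The Last-Actuated minus ground difference ranged from 0.55 to 0.94 for KIN1 and from -0.36 (without ground replicate 1) to -0.10 (without ground replicate 2) for LTI30.

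With all arrays, no measured relative of KIN1 passed the test in any pair of tubes. KIN2, the next gene along the chromosome, encodes a nearly identical protein, so transcripts of one gene could bind probes for the other; how far they did was not tested. The log2 level of KIN2 was 8.73, 9.33 and 9.0 on the ground, 9.0, 9.18 and 9.15 in First-Actuated and 9.07, 8.83 and 8.92 in Last-Actuated roots. The tubes overlapped, and the differences from the ground were 0.091 ± 0.15 (SE) and -0.079 ± 0.15 (limma, Benjamini-Hochberg adjusted p = 0.838 and 0.882 over all genes). As in KIN1, the lowest ground value was that of replicate 1 and the highest that of replicate 2.

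Of the 4 measured relatives of KIN1, limma called 0 in each of the 3 pairs of tubes at an adjusted p under 0.05, and 0 had an unadjusted p under 0.05. The background of calls over all genes was 4.69% for First-Actuated against ground roots, 0.912% for Last-Actuated against ground and 2.24% between the flight tubes. AT5G38760 and AT5G53820 had low levels, from 1.51 to 2.15 and from 1.08 to 1.45 over the 9 arrays, and without detection calls their distance from background is unknown.

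AT3G02480, the fourth relative, had the widest spread on the ground. Its log2 level was 7.98 and 7.21 in ground replicates 1 and 3 and 3.51 in ground replicate 2. The First-Actuated values were 5.16, 4.78 and 5.29, and the Last-Actuated values 4.82, 4.72 and 5.16. All 6 flight arrays thus lay between the ground arrays. The sign of the difference turned with the ground arrays used: First-Actuated minus ground was -1.16 ± 0.89 (SE; limma, adjusted p = 0.593) with all arrays, -2.52 without ground replicate 2 (adjusted p = 4.53e-04) and 1.57 against ground replicate 2 alone (adjusted p = 0.0372). The lone ground array was there assumed to vary like the other groups.

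With all arrays, no other measured dehydrin passed the test in any pair of tubes. XERO1, the gene next to LTI30, was not analysed here, nor were ERD10, ERD14 and RAB18, and 5 other dehydrins were measured. COR47, a cold-induced acidic dehydrin, stood at 7.63, 8.09 and 7.85 on the ground, at 7.97, 8.05 and 8.01 in First-Actuated and at 8.17, 8.07 and 8.10 in Last-Actuated roots. The tubes overlapped, with a First-Actuated minus ground difference of 0.15 ± 0.12 (SE; limma, adjusted p = 0.608).

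AT1G54410, a small histidine-rich dehydrin gene, had its lowest group mean in First-Actuated roots, as LTI30 did. Its log2 level was 5.37, 5.43 and 4.99 in First-Actuated, 5.20, 5.52 and 5.67 in ground and 5.98, 5.80 and 5.70 in Last-Actuated roots. Last-Actuated roots stood 0.56 ± 0.16 (SE) above First-Actuated roots without passing the threshold (limma, adjusted p = 0.121). Of the 5 dehydrins limma called 0 in each pair of tubes, with 1, 3 and 1 at an unadjusted p under 0.05 for First-Actuated against ground, Last-Actuated against ground and Last-Actuated against First-Actuated. Over all genes 16.9%, 12.4% and 13.4% were under it.

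Like LTI30 and unlike COR47 and AT1G54410, the dehydrin genes AT2G21490, AT4G38410 and AT4G39130 had low levels on most arrays. The gene named LEA, AT2G21490, was at 4.78 and 3.39 in ground replicates 1 and 3, at 1.25 in ground replicate 2 and between 1.25 and 1.81 in the 6 flight arrays. The high ground values came from the same 2 arrays as those of AT3G02480. With all arrays LEA differed from the ground by -1.77 in First-Actuated and -1.61 in Last-Actuated roots (limma, adjusted p = 0.201 and 0.361). Without ground replicate 2 this gene passed in both ground comparisons, with differences of -2.71 for First-Actuated and -2.55 for Last-Actuated roots (limma, adjusted p = 0.00166 and 0.00456). That fit leaves out the ground array that stood at the flight levels, so it cannot decide whether the tubes differed. AT4G38410 lay between 1.20 and 2.26 and AT4G39130 between 1.41 and 1.98.

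**Figure D2:**
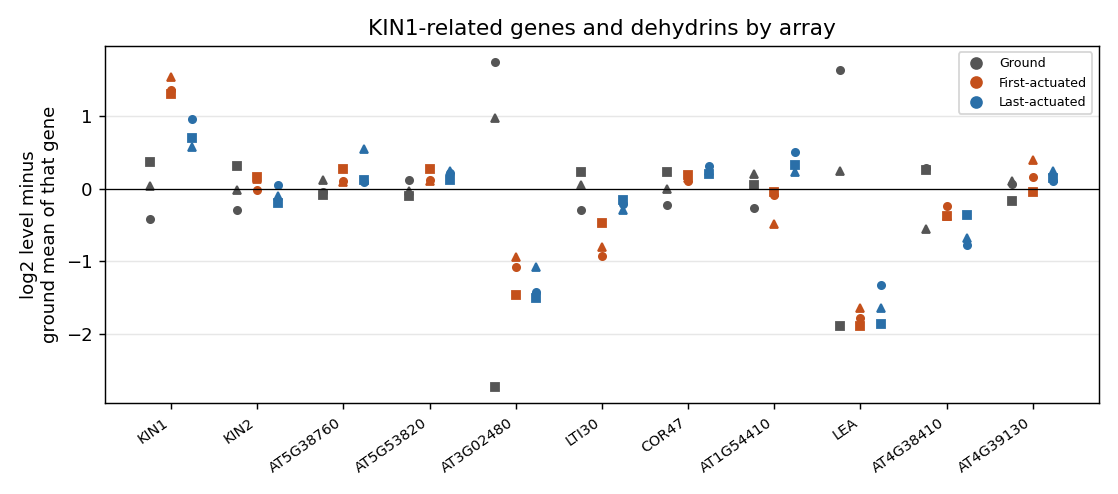
Log2 level on each array minus the mean of the 3 ground arrays (vertical axis) for KIN1, 4 related genes, LTI30 and 5 other dehydrins; colour gives the tube and marker shape the replicate as in the plot of KIN1 and LTI30 levels. First-Actuated points of KIN1 lie above and those of LTI30 below the ground points, while the ground points of AT3G02480 and LEA spread widest, with replicate 2 lowest.

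The wider pathway was described with lists of 185 other genes of abscisic acid, cold and late embryogenesis abundant (LEA) proteins, of which 43 had a named probe set. None of the 14 listed receptors, 19 phosphatases and kinases and 11 synthesis genes was among the 43, so this part of the pathway was not analysed here. Coverage was also thin for 25 cold regulators, 23 regulators of abscisic acid response and 37 other targets, with 2, 1 and 5 measured. CBF1 to CBF4 and the bZIP factors ABF1 to ABF4 were not measured. Other LEA genes made up 24 of the 43, so the counts below describe them most. In First-Actuated against ground roots 1 of the 43 rose and 0 fell (limma), where 3.02% of all genes rose and 1.67% fell. Of the 43, 8 had an unadjusted p under 0.05, as did 16.9% of all genes, and the median difference was 0.016 against 0.0098 over all genes. In Last-Actuated against ground roots 1 rose and 0 fell, where 0.580% and 0.332% of all genes did, with 9 at an unadjusted p under 0.05 (12.4% of all genes) and a median of 0.0043 against 0.026. Between the flight tubes 1 rose and 1 fell from First-Actuated to Last-Actuated roots, where 0.985% and 1.26% of all genes did, with 5 at an unadjusted p under 0.05 (13.4% of all genes) and a median of -0.019 against 0.011. Without ground replicate 2, limma called 1253, 508 and 447 of all 16550 genes. The list counts were then 9 (2 higher and 7 lower), 8 (2 higher and 6 lower) and 3. The first list count was 0 without any 1 First-Actuated array and 2 without Last-Actuated replicate 2 or 3. The second was 0 without ground replicate 1, First-Actuated replicate 1 or 3 or Last-Actuated replicate 3. The third was 0 without any 1 First-Actuated array and 1 without any 1 Last-Actuated array.

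Among the regulators, STZ, a zinc finger repressor induced by cold, salt and other stresses, was highest in First-Actuated roots, as KIN1 was. Its log2 level was 7.64, 8.45 and 8.21 on the ground, 9.04, 9.01 and 9.08 in First-Actuated and 8.08, 8.17 and 7.92 in Last-Actuated roots. The First-Actuated arrays lay above all others, whereas the Last-Actuated arrays lay within the ground range. In single pairs of tubes, 9.41% of all genes were wholly higher in First-Actuated than in ground arrays. Between the flight tubes 9.09% were wholly lower in Last-Actuated arrays. STZ fell by 0.99 ± 0.18 (SE) from First-Actuated to Last-Actuated roots (limma, adjusted p = 0.0231), and its difference between Last-Actuated and ground roots was -0.045 (adjusted p = 0.949). In First-Actuated roots it was higher than on the ground by 0.94 (adjusted p = 0.0162). The call between the flight tubes was lost without any 1 of the 6 flight arrays (adjusted p = 0.0665 to 0.0976). That against the ground was lost without any 1 First-Actuated array (0.0592 to 0.0751), in a fit to these 2 groups (0.0776) and against ground replicate 2 alone, where the difference was 0.59 (0.0982).

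DREB2C, a transcription factor of the group that binds drought-responsive promoters, stood at 3.12, 3.30 and 2.95 on the ground, 3.72, 3.96 and 4.05 in First-Actuated and 3.65, 3.34 and 4.21 in Last-Actuated roots. Neither flight tube overlapped the ground tube. Taken singly, 9.41% of all genes were wholly higher in First-Actuated and 7.26% in Last-Actuated than in ground arrays. The differences from the ground were 0.79 ± 0.20 and 0.61 ± 0.20 (SE), and neither passed (limma, adjusted p = 0.0608 and 0.248). The former passed after quantile normalization of the deposited values (adjusted p = 0.0361), cyclic loess (0.0408) or array weights (0.0467). EEL, a bZIP factor of abscisic acid response in seeds, had differences of 0.18 and 0.30 (adjusted p = 0.564 and 0.403).

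UGT71C5, which encodes an enzyme that attaches glucose to abscisic acid, was at 3.27, 4.26 and 3.59 on the ground. The First-Actuated values were 4.22, 4.24 and 4.45 and the Last-Actuated values 4.16, 4.03 and 4.07, so ground replicate 2 lay among the flight arrays and the other ground arrays below them. The difference between First-Actuated and ground roots was 0.60 ± 0.21 (SE; limma, adjusted p = 0.170), and without ground replicate 2 it was 0.87 (adjusted p = 0.00442). The latter fit leaves out the ground array that lay among the flight arrays, so it cannot decide whether the tubes differed.

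Among the targets, DI21, a drought-induced LEA-type gene, changed in the Last-Actuated tube. Its log2 level was 7.44, 8.19 and 7.59 in Last-Actuated, 6.53, 6.72 and 6.55 in ground and 6.72, 6.38 and 6.68 in First-Actuated roots. Every Last-Actuated array lay above the other 6, and the ground and First-Actuated tubes overlapped. In single pairs of tubes, 7.26% of all genes were wholly higher in Last-Actuated than in ground arrays, and 9.01% than in First-Actuated arrays. DI21 rose by 1.13 ± 0.19 (SE) against the ground (limma, adjusted p = 0.0233) and by 1.14 ± 0.19 against First-Actuated roots (adjusted p = 0.0143), and its First-Actuated minus ground difference was -0.0096 (adjusted p = 0.993). This order of tubes was that of neither KIN1 nor LTI30. The first call was lost without ground replicate 1 or 3, First-Actuated replicate 1 or 3 or Last-Actuated replicate 3 (adjusted p = 0.0551 to 0.113), in a fit to the 2 groups (0.142), with the replicate number as a block (0.0508) and against ground replicate 2 alone (0.301), and the second without any 1 First-Actuated array (0.0525 to 0.0654).

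The other 4 measured targets, COR15A, COR15B, COR27 and AT4G33980 (COR28), were not called in any pair of tubes. COR15A, a cold-induced gene for a chloroplast protein, lay between 1.02 and 1.57 on all arrays. Of the 24 other LEA genes limma called 0 in each pair, with 4, 3 and 1 at an unadjusted p under 0.05 in the 3 pairs in the order above, against 16.9%, 12.4% and 13.4% of all genes. Without ground replicate 2 it called 5, 4 and 1 of the 24, and 1253, 508 and 447 of all 16550 genes. Among the 5 was AtLEA4-1, whose First-Actuated minus ground difference was then -4.0 (limma, adjusted p = 7.58e-05), against -2.61 with all arrays (adjusted p = 0.167). For this gene the ground array left out, at 1.76, stood at the flight levels. AT2G23120, the one with the smallest p, stood at 8.23 ± 0.045 (SD, n = 3) in First-Actuated and 8.67 ± 0.050 in Last-Actuated roots (limma, adjusted p = 0.144). This difference passed after quantile normalization (adjusted p = 0.0267), cyclic loess (0.0225) or without ground replicate 2 (0.0425), but not with array weights.

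**Figure D3:**
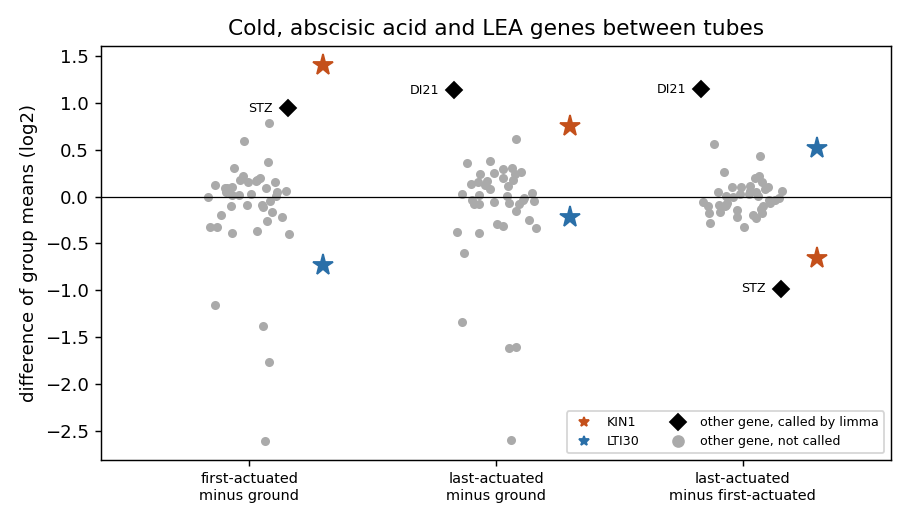
Difference of group means on the log2 scale (vertical axis) for KIN1, LTI30 and 43 other genes of cold, abscisic acid and LEA lists in the 3 pairs of tubes; each point is a gene, diamonds passed limma at an adjusted p under 0.05 and stars are the untested KIN1 and LTI30. STZ and DI21 are the genes that passed, and the lowest grey points in both ground comparisons, down to -2.61, are LEA genes that were high in ground replicates 1 and 3.

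The genes whose levels followed KIN1 or LTI30 most closely were found by Pearson correlation over the 9 arrays, which share their tubes and normalization. Genes were compared if their SD over the arrays was at least 0.5 times that of KIN1 or LTI30, which left 2504 and 8864. For KIN1 the 5 highest were AT4G26990 (r = 0.989), AT4G32020 (0.985), MSRB8 (0.985), which encodes a methionine sulfoxide reductase, AT5G63130 (0.982) and AT3G10020 (0.982). AT4G26990 was at 6.70 ± 0.34 (SD, n = 3) on the ground, 8.12 ± 0.024 in First-Actuated and 7.48 ± 0.11 in Last-Actuated roots. Like KIN1, by whose pattern they were picked, all 5 were lowest in ground replicate 1 and higher in every First-Actuated than in every Last-Actuated array. The most opposite to KIN1 were AT1G33790 (r = -0.983), AT5G64030 (-0.978) and AT5G24490 (-0.969).

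For LTI30 the 5 highest were AT5G66770 (r = 0.979), a gene of the GRAS transcription factor family, AT1G56210 (0.962), AT3G20590 (0.954), WRKY20 (0.946), a transcription factor gene, and AT5G13980 (0.945). AT5G66770 was at 6.22 ± 0.25 (SD, n = 3) on the ground, 5.22 ± 0.17 in First-Actuated and 5.85 ± 0.039 in Last-Actuated roots. The most opposite was AT1G71000 (r = -0.951), which encodes a DnaJ-type chaperone and stood at 6.15 ± 0.067 in First-Actuated roots against 3.89 ± 0.82 on the ground. AT1G04770 (-0.942) and AT3G05110 (-0.934) followed. These lists depended on the measure: by Spearman correlation 1 of the 5 genes named for KIN1 and 0 of those for LTI30 were again among the 5 highest.

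**Figure D4:**
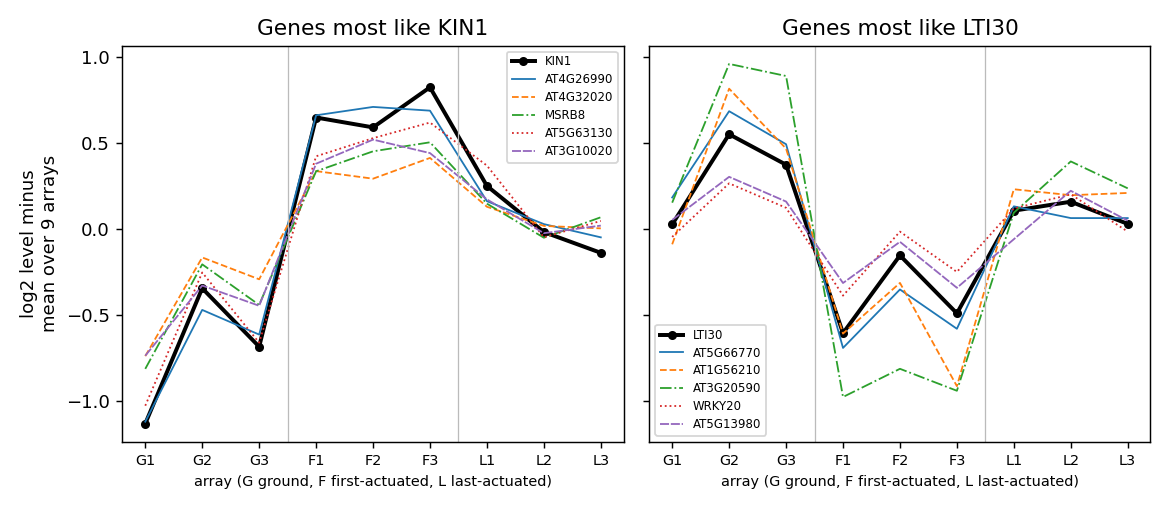
Log2 level minus the mean over 9 arrays (vertical axis) on each array (horizontal axis, ordered by tube and replicate) for KIN1 with its 5 most correlated genes (left) and LTI30 with its 5 (right). The left lines are lowest on the ground and highest in First-Actuated arrays, with Pearson r from 0.982 to 0.989. The right lines have their lowest group mean in First-Actuated arrays, with r from 0.945 to 0.979, though WRKY20 overlaps the other tubes.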

How the data were processed

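Biotin-labelled DNA made from 9 root RNA samples was hybridised by the authors to AraGene 1.0 ST arrays, which have 1 colour. The authors deposited log2 expression values. The submitters' processing notes list RMA, the build TAIR10 and the tools oligo, limma and R (version 4.0.0), with no order or role. Details beyond these were not given in the sources used here. Of 38408 probe sets, 16722 had 1 gene in the platform annotation, 759 several and 20927 were not listed. The 16722 gave 16550 genes, with the brightest probe set kept for 146 genes. The gene table is of another release than the build, so it gave names and neighbours only.

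Pairs of tubes were compared with limma 3.58.1 in R 4.3.3 (statmod 1.5.0) on all 9 arrays, with 6 residual and 3.89 prior degrees of freedom, no trend, and Benjamini-Hochberg adjustment over 16550 genes; genes were called at an adjusted p under 0.05. The fit was tested on simulated data. KIN1, LTI30 and all lists were chosen with earlier results of these data known. Named genes were KIN1, LTI30, their measured relatives, called list genes, the smallest p of a list with none called, and the 5 highest and 3 lowest correlations; DREB2C, AtLEA4-1, AT3G15670, PAP85 and the other COR genes were added after their values were seen. Same-numbered replicates had correlations of -0.11 to 0.070 in their deviations from group means, and different-numbered ones -0.11 to 0.14. No pairing by number was seen, but with 3 arrays in each group these values cannot show that samples were unpaired. Alternatives were 3 other normalizations, filters on low levels, the mean over probe sets, trend, robust fits, array weights, 2-group fits, a replicate block, a stricter threshold and fits without each array. Figures used Python 3.11.15, pandas 2.3.3 and matplotlib 3.10.9.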

Additional observations from a re-analysis of the deposited data

How the results depend on the processing

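The differences of KIN1 and LTI30 kept their sign under every alternative run, and moved by less than the SD between replicates except against ground replicate 2 alone, an alternative chosen after seeing the data, where KIN1 was 1.03 and 0.38 above the ground in First-Actuated and Last-Actuated roots and LTI30 differed by -0.45 in Last-Actuated roots. Without 1 array at a time, KIN1 ranged over 1.20 to 1.59, 0.55 to 0.94 and -0.77 to -0.57 for First-Actuated minus ground, Last-Actuated minus ground and Last-Actuated minus First-Actuated, and LTI30 over -0.88 to -0.62, -0.36 to -0.10 and 0.42 to 0.65.

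Counts of called genes were less stable. For First-Actuated against ground, 1 list gene was called, and 2 were after quantile normalization, cyclic loess or array weights or with genes above the lower quartile or the median of gene means. It was 0 at an adjusted p under 0.01, and 0 to 9 without 1 array. In 2-group fits the count stayed 1, but STZ was not the gene called (limma, adjusted p = 0.0776). For Last-Actuated against ground the count of 1 became 0 in 2-group fits, with the replicate block, at 0.01 or against ground replicate 2 alone, and was 0 to 8 without 1 array. Without ground replicate 3 the count stayed 1, but DI21 was not the gene called (limma, adjusted p = 0.113). The replicate block, which rests on numbers that are not said to pair samples, gave DI21 an adjusted p of 0.0508 by limma. Between the flight tubes the count of 2 became 0 at 0.01 and 0 to 3 without 1 array. Over all genes, the 776 of First-Actuated against ground became 419 in 2-group fits, 327 at 0.01, 213 against ground replicate 2 alone and 384 to 1253 without 1 array. The 151 of Last-Actuated against ground became 255 with genes above the median, 28 in 2-group fits, 43 at 0.01, 25 against ground replicate 2 alone and 53 to 508 without 1 array. The 371 between flight tubes became 597 with array weights, 94 at 0.01 and 100 to 495 without 1 array. Of the 5 genes named as most like each, Spearman correlation returned 1 for KIN1 and 0 for LTI30, and fits without 1 array 1 to 4 for each. Fewer arrays or genes enter several of these fits by construction, and the cause of the other shifts was not tested. No detection calls were available, so low levels have no known distance from background.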

Other observations

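Several transcripts of embryo and seed proteins stood high in 2 of the 3 ground arrays and in no flight array. AtLEA4-1, a LEA protein gene known from maturing and drying seeds, was at 6.40 and 5.50 in ground replicates 1 and 3, at 1.76 in ground replicate 2 and between 1.59 and 2.15 in the 6 flight arrays. AT3G15670, another LEA gene, was at 4.94, 1.86 and 4.26 in ground replicates 1, 2 and 3 and between 1.68 and 2.36 in flight arrays. Ground replicates 1 and 3 both lay above the other 7 arrays for 9 of the 43 list genes, 4 of them by at least 1 on the log2 scale (AtLEA4-1, AT3G02480, AT3G15670 and LEA), against 5.11% and 0.411% of all 16550 genes. On the ground KIN1 and LTI30 were both highest in replicate 2, where these 4 transcripts were lowest.

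A list of 20 seed storage protein and oleosin genes was set beside these values after they had been seen, and 9 of its members had a named probe set. Their summed log2 level was 19.7, 14.5 and 18.0 in ground replicates 1, 2 and 3, 14.5 to 15.0 in First-Actuated and 14.9 to 15.7 in Last-Actuated arrays, and none was listed at 0. PAP85, which encodes a vicilin-type storage protein, stood at 5.50, 2.13 and 3.84 on the ground and between 2.24 and 2.63 in flight. Of the 9 genes, 3 had their highest level in ground replicate 1 and 2 in ground replicate 3, and the others had it in a flight array. AT1G03890 and AT2G18540 had their lowest level of all arrays in ground replicate 1, at 1.66 and 1.13. The part of seed tissue in the values of KIN1, LTI30 and their relatives was not tested. All values in this part were picked after they were seen and carry no test.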
